A study of Mus musculus with 35 samples.

Results

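The regions described here are 1111 stretches of the mouse genome that carried an H3K27ac peak in all 8 libraries of haematopoietic stem and progenitor cells (HSPC) and in neither of the 2 libraries of neutrophils. They were found by merging the H3K27ac peaks of 10 libraries into 48381 regions, of which 11576 had a peak in every HSPC library. The 1111 regions, called HSPC-restricted below with respect to neutrophils only, make up 9.6% of those and 2.30% of all merged regions. Another 10058 had a peak in all 10 libraries and serve as the comparison below. The regions were selected on the presence of H3K27ac peaks, so its absence from neutrophils is a description and was not tested. The H3K4me1 and H3K4me3 peaks did not enter the choice. The length of the H3K27ac peaks in HSPC entered only in that each of the 8 libraries had to have a peak. A region whose peak was lost altogether in a genotype could therefore not be included, which holds for all 11576 regions.

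Chromatin immunoprecipitation and sequencing of 3 histone marks was performed on bone marrow of C57BL/6 mice, flushed from femurs and tibias and cleared of red cells by lysis. The 5 groups were WT neutrophils, taken with a neutrophil isolation kit, and lineage-negative HSPC of DM, Npm1c, Flt3-ITD and WT mice, taken by depletion of lineage-bearing cells. Npm1c is the cytoplasmic form of nucleophosmin and Flt3-ITD the internal tandem duplication of the FLT3 receptor, both recurrent in acute myeloid leukaemia; DM is read as the double mutant of the pair, although no label defines it. Each group had 2 libraries per mark, named biological replicates by the study; whether they came from separate animals is not given, so the p-values below measure the spread between these samples only. The sources used here do not give how the mutations were introduced, the ages or the makeup of the HSPC fractions, and lineage-negative marrow is a mixture of progenitors. Fewer cells bearing a peak and less of the mark per cell cannot be told apart in such bulk samples.

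The deposited data are peak positions in mm10 with no read counts, so the depth behind each library is unknown and every value below is a length of peak in base pairs (bp). H3K27ac peaks were of variable length and at least 200 bp long, whereas nearly every H3K4me1 and H3K4me3 peak was 1000 bp long, so that the methyl marks move in steps of about 1 peak. The cell labels were checked against marker lists. In windows of the gene plus 10 kb on each side, 24 of 27 mature neutrophil genes carried H3K27ac in both neutrophil libraries, against 7 in both WT HSPC libraries, with 69.8 kb of peak in neutrophils and 11.3 kb in WT HSPC on average. Of 30 stem and progenitor genes, 16 carried it in both neutrophil libraries and 24 in both WT HSPC libraries, with 65.9 kb of peak in neutrophils and 107.7 kb in WT HSPC.

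H3K27ac, acetylation of lysine 27 of histone H3, marks active promoters and enhancers. H3K4me3 sits at the starts of genes, active or poised, and H3K4me1 at enhancers and on the flanks of promoters, where both methyl marks can persist after acetylation is gone. As progenitors mature into neutrophils they leave the cell cycle, switch off stem cell receptors and HOX genes, and close the genes of the primary granules before those of the later granules open.

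The promoters below are shown because each lies in or beside one of the 1111 regions and belongs to a gene on which the results turn: Kit and Flt3, the receptors of stem cell factor and FLT3 ligand; Hoxa9 and its cofactor Meis1; and H1f3, a linker histone gene of the large chromosome 13 cluster. Each is the stretch of 250 bases before the gene's listed start in the RefSeq table of GRCm38.p6, written 5′ to 3′ on the gene's strand. For Kit it is chr5:75574737-75574986 on the plus strand, for Flt3 chr5:147400490-147400739 on the minus strand, for Meis1 chr11:19018970-19019219 on the minus strand, for Hoxa9 chr6:52227371-52227620 on the minus strand and for H1f3 chr13:23554782-23555031 on the plus strand. Capitals mark matches on either strand: GGGCGG is the GC box in the Kit and Hoxa9 stretches. GGAAGT is the core of ETS factors in the Flt3 and Meis1 stretches. The RUNX match in the Meis1 stretch is TGTGGT. Meis1 and H1f3 both hold the CCAAT box, and Hoxa9 a GATA match near its start. The region at Kit begins within the stretch shown.
Kit: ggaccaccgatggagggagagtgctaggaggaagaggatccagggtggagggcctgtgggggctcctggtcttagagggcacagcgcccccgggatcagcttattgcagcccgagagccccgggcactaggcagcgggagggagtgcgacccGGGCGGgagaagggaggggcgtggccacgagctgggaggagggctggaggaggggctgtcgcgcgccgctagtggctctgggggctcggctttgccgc
Flt3: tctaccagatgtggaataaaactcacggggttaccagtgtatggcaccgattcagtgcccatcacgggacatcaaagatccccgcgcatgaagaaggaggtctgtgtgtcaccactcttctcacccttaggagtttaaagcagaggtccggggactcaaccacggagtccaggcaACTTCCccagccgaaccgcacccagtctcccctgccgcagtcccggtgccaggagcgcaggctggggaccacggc
Meis1: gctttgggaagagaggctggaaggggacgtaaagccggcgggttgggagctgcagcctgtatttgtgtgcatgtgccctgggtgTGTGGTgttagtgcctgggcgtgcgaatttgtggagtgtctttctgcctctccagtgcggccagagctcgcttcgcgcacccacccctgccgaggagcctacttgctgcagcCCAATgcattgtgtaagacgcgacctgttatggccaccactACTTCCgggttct
Hoxa9: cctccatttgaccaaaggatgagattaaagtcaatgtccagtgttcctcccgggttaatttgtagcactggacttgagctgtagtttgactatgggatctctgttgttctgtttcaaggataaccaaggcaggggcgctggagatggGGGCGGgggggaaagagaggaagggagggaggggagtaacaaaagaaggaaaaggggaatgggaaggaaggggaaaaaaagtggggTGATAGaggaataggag
H1f3: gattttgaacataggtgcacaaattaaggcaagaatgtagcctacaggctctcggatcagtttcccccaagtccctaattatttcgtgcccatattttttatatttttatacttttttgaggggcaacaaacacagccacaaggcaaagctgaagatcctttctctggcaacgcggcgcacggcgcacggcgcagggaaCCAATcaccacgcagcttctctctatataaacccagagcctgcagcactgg

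The Kit stretch is rich in G and C (70.8%, with 17 CpG pairs) and holds a GC box, the Flt3 stretch (59.2%, 13 CpG pairs) holds an ETS match, and the H1f3 stretch (47.6%, 10 CpG pairs) holds the CCAAT box typical of histone promoters. Within the longest of the 1111 regions also lies the gene of miR-196b, a HOX cluster microRNA, at chr6:52230129-52230150 for the 5p arm and chr6:52230094-52230115 for the 3p arm, both on the minus strand of GRCm38.p6. Its mature RefSeq sequences are shown because it is encoded within the region with the largest response to genotype; capitals mark the seed, bases 2 to 8, and the arms do not share it.
mmu-miR-196b-5p: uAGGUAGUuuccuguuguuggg
mmu-miR-196b-3p: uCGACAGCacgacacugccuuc

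Over all gene starts that lie in the 1111 regions (442 starts of 405 genes), the median GC content of the same stretch was 60.8% with 16 CpG pairs, against 61.2% and 18 for 7505 starts in regions acetylated in all 10 libraries and 55.6% and 10 for all 21230 listed starts. The GC box was present in 62.4% of the starts in HSPC-restricted regions, 63.4% of those in regions of all 10 libraries and 42.6% of all starts. GGAAGT, the core bound by ETS factors, stood in 18.1%, 26.5% and 20.4% of these sets, in the same order as in the values that follow, and TTGCNNAA, the letters of C/EBP factors, in 4.75%, 6.70% and 9.10%. CACGTG, the MYC E-box, stood in 9.05%, 9.11% and 6.63%. GATA preceded by A or T and followed by A or G, the letters of GATA factors, stood in 15.4%, 14.2% and 23.6%, and TGTGGT (RUNX) in 10.6%, 9.81% and 12.4%. Both strands were searched, PU.1-like AGGAAGTG (2.72%, 3.53% and 3.04%) overlaps the ETS letters, and these shares are descriptions without a test.

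The HSPC-restricted regions were short. Their median length was 1062 bp (quartiles 729.5 and 1525.5 bp, range 348 to 11121 bp), and together they covered 1398.2 kb. The H3K27ac peak within them, averaged over the 8 HSPC libraries, had a median of 682 bp, against 1108 bp in regions acetylated in all 10 libraries. Just outside the rule lay 407 regions with a peak in 1 neutrophil library, with a median length of 998 bp and a median of 253 bp of neutrophil peak, close to the shortest peak listed. Another 558 had no neutrophil peak but missed 1 of the 8 HSPC libraries, and their median length was 843.5 bp. Inside the rule, the narrowest of the 8 HSPC values had a median of 338 bp, and in 30 regions it was 200 bp. The share of HSPC regions that lacked a neutrophil peak was 21.6% (501 of 2317) in the quintile with the shortest HSPC peaks, and 11.9%, 7.65%, 4.02% and 2.81% in the next quintiles, the last being 65 of 2315. The rule therefore took short peaks more often than long ones.

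HSPC-restricted regions held a gene start less often than the regions acetylated in all 10 libraries. Positions could be read for 806 regions, those whose nearest gene and all genes within 10 kb have a listed start. Of these, 356 (44.2%) held a gene start, against 5350 of 7569 (70.7%) regions acetylated in all 10 libraries. At least 10 kb separated 223 of them (27.7%) from any start, against 926 (12.2%). Read the other way, 6.08% of HSPC regions that held a start lacked a neutrophil peak, compared with 18.9% of those inside a gene and 17.1% of those between genes. The shares also differed by position within quintiles of length. Among the longest quintile, 1.91% of regions at a start (29 of 1520), 15.2% inside a gene (17 of 112) and 2.30% between genes (2 of 87) lacked a neutrophil peak, and among the shortest quintile 19% at a start, 23.3% inside a gene and 27.3% between genes did.

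**Figure D1:**
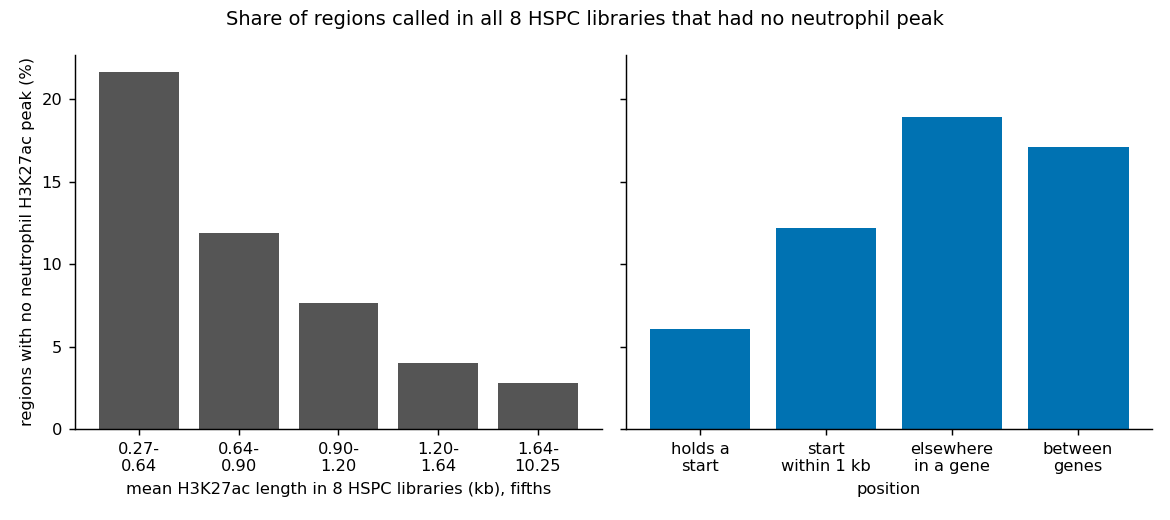
Share (%) of the regions acetylated in all 8 HSPC libraries that had no neutrophil H3K27ac peak, by quintile of their mean H3K27ac length in HSPC (left) and by position relative to genes (right). The share is 21.6% in the shortest quintile and 2.81% in the longest, and 18.9% inside genes against 6.08% at gene starts.

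Neutrophils had H3K27ac elsewhere near many of these regions. The nearest neutrophil peak lay at a median distance of 20670 bp (quartiles 4280 and 61911 bp). It lay within 1 kb of 165 regions (14.9%), within 10 kb of 407 (36.6%) and within 100 kb of 935 (84.2%). At regions described below the distances were 604729 bp at Angpt1, 273718 bp at Car2, 171872 bp at Kit and 68924 bp at Myc, against 2151 bp at Ctsg and 318 bp at Mxd1.

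The 12 longest regions, by mean H3K27ac length over the HSPC libraries, were named by the gene that holds or lies nearest to them. They were Hoxa10, Car2 (carbonic anhydrase of red cell precursors), Ptch1 (the hedgehog receptor), Hoxa7, Dnajc6 (auxilin, an uncoating factor of clathrin vesicles), Mpo (myeloperoxidase), Rnf220 (a ubiquitin ligase), Lgals3bp (a galectin-binding secreted protein), Myc (the growth regulator), Zbtb46 (a factor of classical dendritic cells), the predicted gene Gm30990 and a region 183843 bp from the end of Map3k1. No neutrophil library had any H3K27ac there by the rule. At Mpo (chr11:87794460-87798240) H3K27ac covered 3160 and 1413 bp in DM, 3628 and 3731 bp in Npm1c, 3780 and 3702 bp in Flt3-ITD and 2994 and 2978 bp in WT HSPC. All libraries but DM replicate 2 lay close together at Mpo. At Myc (chr15:61983760-61987300) it covered 2806 and 1977 bp in DM, 3278 and 3387 bp in Npm1c, 2702 and 3034 bp in Flt3-ITD and 2954 and 3028 bp in WT HSPC. At Ptch1 (chr13:63562357-63568681) it covered 3168 and 2867 bp in DM, 6274 and 5585 bp in Npm1c, 2672 and 4650 bp in Flt3-ITD and 4250 and 4305 bp in WT HSPC. DM lay below WT HSPC in both libraries at Ptch1 and Npm1c above it, and neither passed the limma test described with the genotypes below (adjusted p = 0.276 for DM and 0.184 for Npm1c).

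**Figure D2:**
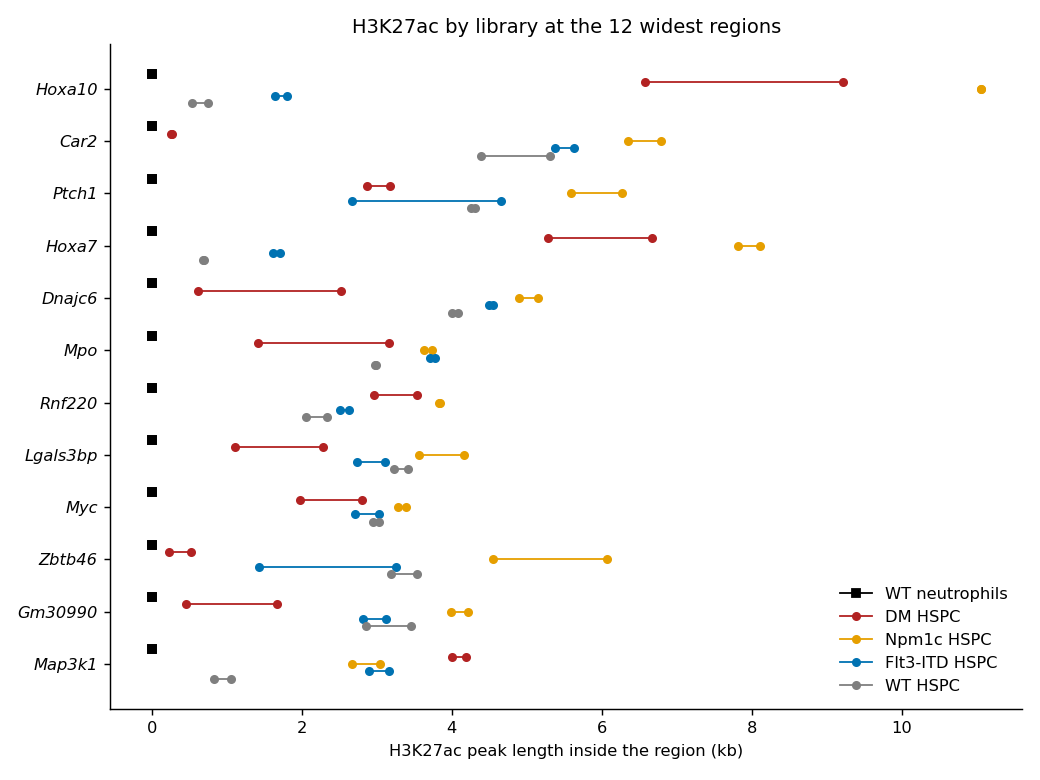
Length of H3K27ac peak (kb) in each of the 10 libraries at the 12 longest HSPC-restricted regions. There is 1 row per region on a shared axis, with groups from WT neutrophils at the top to WT HSPC at the bottom of each row. Neutrophil points are at 0 by the choice of regions, the Hoxa10 and Hoxa7 regions are long in DM and Npm1c and under 1 kb in WT HSPC, and Car2 is under 0.3 kb in DM.

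The methyl marks of HSPC mostly stayed in neutrophils at these regions. Within 1 kb of the region, H3K4me3 was present in both WT HSPC libraries at 1046 of the 1111 regions, and both neutrophil libraries had it at 995 of those (95.1%), against 9854 of 9881 (99.7%) in regions acetylated in all 10 libraries. It was gone from both neutrophil libraries at 41 (3.92%), against 18 of those 9881 (0.182%). H3K4me1 was kept in both neutrophil libraries at 1063 of 1087 regions (97.8%), against 9784 of 9923 (98.6%). In all, 1013 of the 1111 regions (91.2%) had H3K4me3 within 1 kb in both neutrophil libraries, against 99.3% of the regions acetylated in all 10 libraries (9985 of 10058). Counted inside the region alone the number was 926, and with equal list lengths 930. With no extension, the region itself held H3K4me1 together with H3K4me3 in both libraries at 808 regions in neutrophils and 781 in WT HSPC, H3K4me1 alone at 130 in neutrophils and 101 in WT HSPC, and H3K4me3 alone at 54 in neutrophils and 77 in WT HSPC. Neither mark was present at 16 regions in each group, and the replicates differed at the others.

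Regions that lost H3K4me3 in neutrophils lay away from gene starts, as far as their position could be read. All 356 regions that held a start and had H3K4me3 in WT HSPC kept it in neutrophils, as did 123 of 124 with a start within 1 kb. The share was 88.9% (72 of 81) at 1 to 10 kb and 86.6% (168 of 194) beyond 10 kb, where regions acetylated in all 10 libraries kept it at 98.5% and 99.0%. Of the 41 regions without H3K4me3 in either neutrophil library, 34 had it in all 8 HSPC libraries, 36 kept H3K4me1 in both neutrophil libraries, and 0 of the 31 whose position could be read held a start, with 7 lying 1 to 10 kb from one and 24 over 10 kb. They included regions in Trp53 (the p53 tumour suppressor), Bcl2l11 (the pro-apoptotic BIM), Elf1 and Cux1 (transcription factors), Cd27 (a TNF receptor of lymphocytes and progenitors), Rhoh (a haematopoietic GTPase), Padi2 (a peptidylarginine deiminase), Tns1 (tensin), Rftn1 (raftlin), Sgms1 (sphingomyelin synthase) and 2 regions in Capn5. All but Tns1, Padi2 and Rftn1 of these were picked after their values were seen. At Rftn1 (chr17:50018892-50022210) and at Elf1 (chr14:79529380-79531497) H3K4me3 covered 0 bp in both neutrophil libraries, against 1000 and 1000 bp in WT HSPC. H3K4me1 at Elf1 covered 1662 and 1536 bp in neutrophils and 1551 and 1683 bp in WT HSPC, so that the libraries of the groups overlapped. Of the 41, H3K4me1 was absent from both neutrophil libraries at Megf11, where WT HSPC had 1484 and 1528 bp, and at Lpin1, where WT HSPC had 1000 and 2001 bp.

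H3K4me1 lay more inside the regions and less in their flanks in neutrophils than in WT HSPC. Averaged over the 1111 regions, it covered 700 and 679 bp inside the region in the neutrophil libraries and 571 bp in each WT HSPC library. In the 1 kb flanks it covered 439 and 458 bp in neutrophils, against 759 and 753 bp in WT HSPC. The mutant HSPC libraries had 688 to 753 bp in the flanks, so that the neutrophil libraries stood below all 8 HSPC libraries. The regions acetylated in all 10 libraries had 636 and 616 bp inside in neutrophils, against 594 and 598 bp in WT HSPC, and 858 and 888 bp in the flanks in neutrophils, against 948 and 951 bp in WT HSPC. At HSPC-restricted regions that held a gene start, H3K4me1 averaged 776 bp inside the region in neutrophils, against 569 bp in WT HSPC, and 410.0 bp in the flanks in neutrophils, against 888 bp in WT HSPC. H3K4me3 inside the regions averaged 679 and 677 bp in neutrophils, against 728 and 735 bp in WT HSPC.

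**Figure D3:**
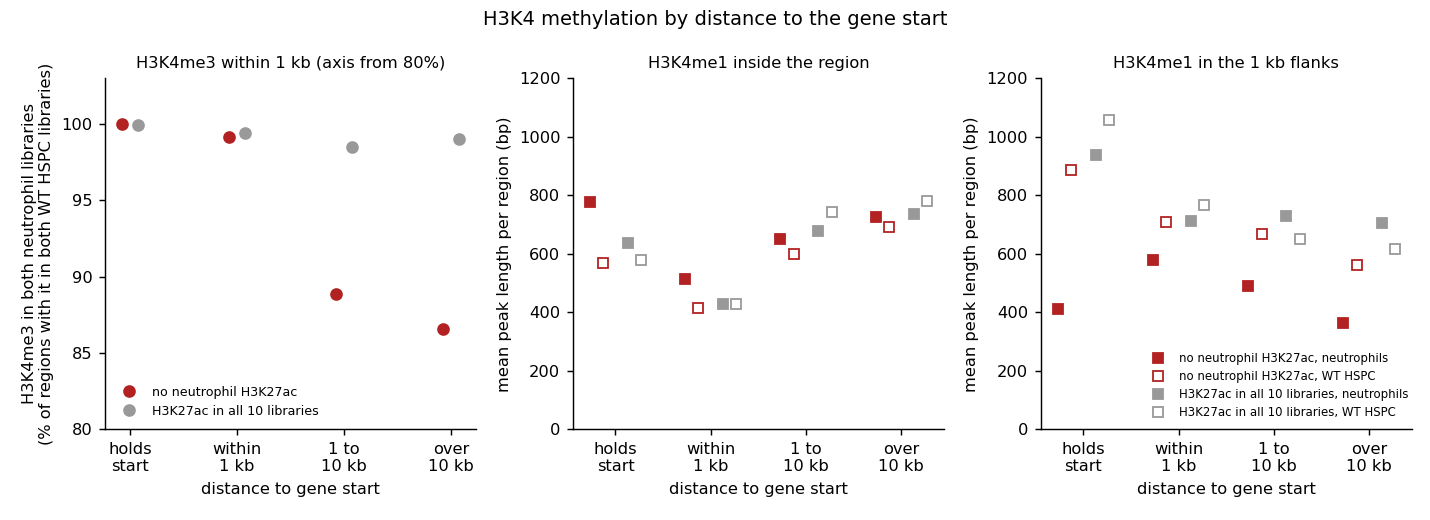
Share of regions keeping H3K4me3 in both neutrophil libraries (left, %, axis from 80%), and mean H3K4me1 (bp) inside the region and in its 1 kb flanks, by distance to the nearest gene start. Red marks the HSPC-restricted regions and grey those acetylated in all 10 libraries, with filled points for neutrophils and open points for WT HSPC; the red share falls to 86.6% beyond 10 kb, and the red neutrophil values lie above WT HSPC inside the region and below it in the flanks.

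Each region was tested with limma on log2(bp + 500) of the mark within 1 kb, fitted over all merged regions. H3K4me1 was called lower in neutrophils at 76 of 1106 regions (6.87%; 9.82% of all regions tested) and higher at 24 (2.17%; 3.51%). H3K4me3 was called lower at 63 of 1101 (5.72%; 7.13%) and higher at 37 (3.36%; 10.8%). None of these 4 shares, taken within 1 kb, exceeded that of all regions tested. Of the 100 calls for H3K4me3, 32 had no spread at all between replicates, because 1000-bp peaks fell on the same positions. The p-values of these 32 are not given. With the spread of every region raised to at least a floor, 44 were lower (4.0%, against 7.95% of all regions tested) and 6 higher (0.545%, against 11.7%). For H3K4me1, 102 were then lower (9.22%, against 11.4%) and 8 higher (0.723%, against 1.99%). The floor also changed the estimate of spread shared by all regions, and adjusted p fell at some of them. Without the 1 kb extension the split for H3K4me1 turned round, to 23 lower (2.14%; 8.57% of all) and 96 higher (8.92%; 3.79%), and H3K4me3 had 154 lower (14.8%; 8.80%) and 44 higher (4.24%; 11.2%). Inside the regions themselves, the shares of higher H3K4me1 and of lower H3K4me3 thus exceeded those of all regions. Erg, an ETS factor of stem cells, held under both forms of the test: H3K4me1 within 1 kb of its intronic region (chr16:95438324-95441503) covered 771 and 630 bp in neutrophils, against 2000 and 2000 bp in WT HSPC (log2 change -1.06 ± 0.14 SE, adjusted p = 0.0051, and 0.00214 with the floor, but 0.0874 with 2500 bp on each side), while H3K4me3 there covered 1000 bp in all 4 of these libraries. At Zbtb46 H3K4me1 covered 1000 and 1000 bp in neutrophils, against 3035 and 3000 bp in WT HSPC (adjusted p = 0.0549, and 0.00262 with the floor). At Kit (chr5:75574933-75579281) the methyl marks lay higher in neutrophils: H3K4me3 covered 2000 and 2000 bp in neutrophils, against 1000 and 1000 bp in WT HSPC, and H3K4me1 3172 and 3000 bp in neutrophils, against 2000 and 1020 bp in WT HSPC. Kit libraries of the groups did not overlap in either mark, and adjusted p was 0.11 for H3K4me1, which did not pass (0.028 with the floor), and 0.261 with the floor for H3K4me3.

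Genes were assigned the regions within the gene or 10 kb of it. Of 11024 genes with a region acetylated in all 8 HSPC libraries, 1378 (12.5%) had at least 1 of the 1111; 466 of these had no H3K27ac peak in either neutrophil library anywhere in that window. In the gene lists the highest shares were those of HOX genes and their cofactors (8 of 15, 53.3%) and of stem and progenitor genes (9 of 21, 42.9%). The 8 HOX and cofactor genes rest on 5 regions, 3 of them neighbours in the Hoxa cluster, where the gene windows overlap. The share was 2 of 5 for T and NK cell genes, 3 of 9 (33.3%) for megakaryocyte genes, 3 of 11 (27.3%) for monocyte, macrophage and dendritic cell genes, 3 of 12 for primary granule genes, 3 of 15 (20.0%) for erythroid genes, 2 of 10 (20.0%) for B-lymphoid genes and 1 of 6 (16.7%) for mature neutrophil genes. Of the biosynthetic lists, 6 of 22 (27.3%) one-carbon, nucleotide and amino-acid genes had one and 8 of 31 (25.8%) ribosome biogenesis genes. AP-1 and immediate early genes had 5 of 22 (22.7%), cytokine receptor and signalling genes 4 of 24 (16.7%), cell cycle genes 6 of 38 (15.8%), chromatin and DNA methylation factors 3 of 24 (12.5%) and housekeeping genes 2 of 17 (11.8%). The list of other tissues had 0 of 1, and no gene of eosinophils, basophils or mast cells had a region in all 8 HSPC libraries. Shares of short lists are descriptions, and the lists were drawn up with earlier results of these data known.

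**Figure D4:**
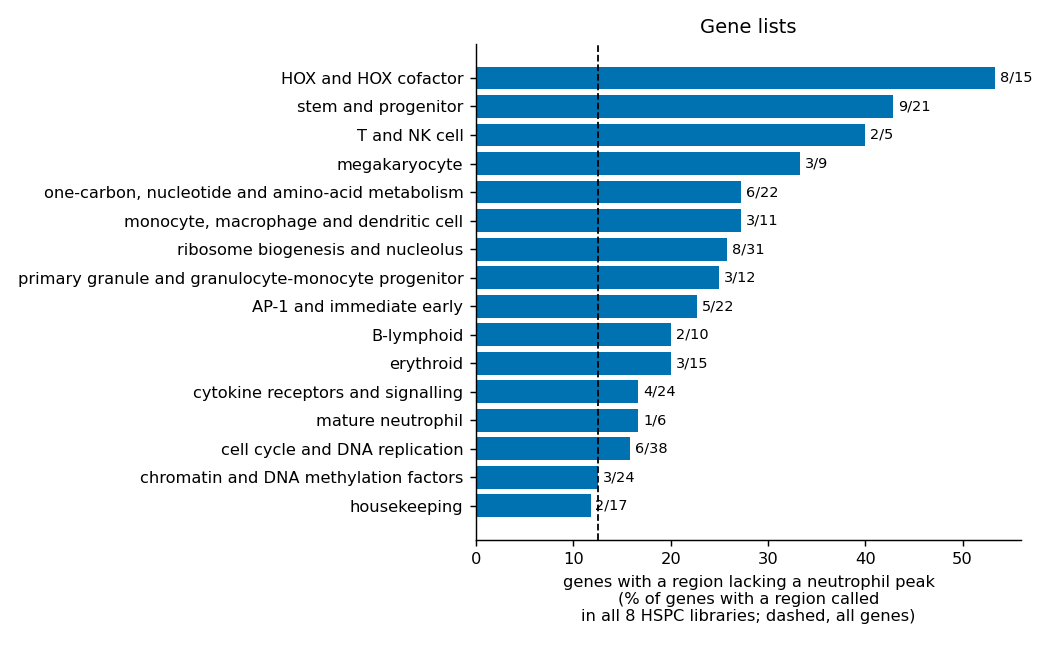
Percentage of the genes with an H3K27ac region in all 8 HSPC libraries that had at least 1 HSPC-restricted region within the gene or 10 kb of it, for each gene list. The dashed line is the share over all protein-coding genes, 12.5%. HOX genes and cofactors reach 53.3%, with 8 genes resting on 5 regions, and housekeeping genes 11.8%.

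The stem and progenitor genes with an HSPC-restricted region were Flt3, Kit, Cd34 (the progenitor surface sialomucin), Angpt1 (the TIE2 ligand angiopoietin 1), Myc, and the transcription factors Erg, Meis1, Runx1 and Ikzf2. In 7 of the 9, the window had no H3K27ac in neutrophils at all. Runx1, the core factor of blood formation, was not among the 7: its window had 13193 and 12531 bp of H3K27ac in neutrophils, against 8520 and 8227 bp in WT HSPC. Kit had no neutrophil peak within 171872 bp of its region. At Flt3, 2 regions met the rule, the promoter region (chr5:147398465-147401316) and an intronic one 17434 bp from the start (chr5:147339874-147342497). H3K4me3 within 1 kb of the intronic Flt3 region covered 0 bp in both neutrophil and both WT HSPC libraries, but 1000 and 1000 bp in DM and 1000 and 1967 bp in Flt3-ITD. The Flt3 region 2, at the promoter, had 1000 bp of H3K4me3 in all 10 libraries, and its H3K4me1 covered 1000 and 1000 bp in neutrophils, against 2000 and 2000 bp in WT HSPC (adjusted p = 0.11, and 0.0429 with the floor).

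HOX genes had their HSPC-restricted regions in 3 neighbouring stretches of the Hoxa cluster, within 23.3 kb: Hoxa3 (chr6:52211780-52214122), Hoxa7 (chr6:52215637-52223865) and Hoxa10 (chr6:52223956-52235076), the last of which holds the Hoxa9 start and miR-196b. In neutrophils H3K4me3 stayed at all 3, with 3000 and 3000 bp at Hoxa10 in neutrophils, against 4000 and 4000 bp in WT HSPC, and 2000 bp in each of these libraries at Hoxa7. The gene windows of Hoxa6, Hoxa9 and Meis1 had no H3K27ac in either neutrophil library, and that of Hoxa5 had 246 and 0 bp in neutrophils, against 622 and 656 bp in WT HSPC.

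Genes for growth and biosynthesis also had HSPC-restricted regions, many of them beside a neutrophil peak in the same window. The ribosome biogenesis genes were Npm1 itself, Polr1b (a subunit of RNA polymerase I), Utp20, Grwd1, Ddx18, Nop16, Rrp9 and Noc2l, and 4 of the 8 had no neutrophil peak in the window. At the Npm1 window H3K27ac covered 278 and 218 bp in neutrophils, against 1243 and 1134 bp in WT HSPC. The metabolic genes were Myc, Slc7a5 (the large neutral amino-acid transporter), Phgdh (the first enzyme of serine synthesis), Odc1 (ornithine decarboxylase), Ahcy and Shmt2. At Phgdh (chr3:98338410-98339729) H3K4me1 within 1 kb covered 1000 and 1000 bp in neutrophils, against 0 bp in both WT HSPC libraries (log2 change 1.58, adjusted p = 0.183, and 0.00198 with the floor). The cell cycle genes were Ccnd2, Ccnd3, Cdk4, Cdk6, Tk1 and Aurkb, of which 1 had no neutrophil peak in the window. Their share of 15.8% was near the 12.5% of all genes. The region in the Cdk4 window lay inside Tspan31 and that in the Tk1 window inside Afmid. Ccnd3 had 1 HSPC-restricted region among 7 acetylated in all HSPC libraries, and Cdk6 had 2 among 6. At the Ccnd2 region (chr6:127149199-127151066), H3K4me1 inside the region covered 1000 and 1000 bp in neutrophils and 0 bp in all 8 HSPC libraries, and within 1 kb it covered 1723 and 1793 bp in neutrophils, against 1557 and 1565 bp in WT HSPC.

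Among the genes of granulocytes, the primary granule genes Mpo, Ctsg (cathepsin G) and Nkg7 (a granule membrane protein) had an HSPC-restricted region (3 of 12), and of the mature neutrophil list only Mxd1, the MYC antagonist, did. The primary granule list as a whole carried more H3K27ac in neutrophils, with 42.2 kb in neutrophils and 26.9 kb in WT HSPC, and peaks in both libraries at 19 of 25 genes in neutrophils and 16 in WT HSPC. At Ctsg (chr14:56099934-56103607) H3K27ac covered 2887 and 1789 bp in DM, 2785 and 3674 bp in Npm1c, 3373 and 3335 bp in Flt3-ITD and 1656 and 1720 bp in WT HSPC. The Ctsg region lay lowest in WT HSPC in every comparison, and none of the 3 genotypes passed the test there (adjusted p = 0.0573 for Npm1c). H3K4me3 at Ctsg covered 1000 and 1000 bp in neutrophils and the same in WT HSPC, and at Mpo 2511 and 2249 bp in neutrophils, against 2877 and 2643 bp in WT HSPC (adjusted p = 0.0954). H3K4me1 at Mpo covered 3163 and 1616 bp in neutrophils, against 3062 and 1735 bp in WT HSPC, so the groups overlapped.

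Replication-dependent histone genes, examined after their values were seen, formed the run with the most HSPC-restricted regions. It had 8 of them within 78.8 kb (chr13:21710086-21788848), among H2bc13, H3c10, H2bc14, H4c11, H2ac15, H2bc15, H2ac22 and H2bc22. Of 63 histone genes, 56 had a region of all 8 HSPC libraries in their window and 42 of those an HSPC-restricted one. Since windows overlap in the cluster, the genes share regions. Counted by overlap with the gene itself, without a window, 52 had a region of all 8 HSPC libraries. Of those, 16 overlapped an HSPC-restricted one, so the window count depends on regions beside the genes. The stretch chr13:21710086-23764736, from the first to the last HSPC-restricted region around the histone cluster, held 24 of them among 67 acetylated in all HSPC libraries. Some of the 24 lay at other genes, such as Prss16, Abt1 and Btn1a1, so the values that follow are not of histone genes alone. Their H3K4me3 was present in 23 and 24 of the 24 in the neutrophil libraries and averaged 1181 and 1178 bp in neutrophils, against 1158 and 1219 bp in WT HSPC. The groups overlapped in H3K4me3, while H3K4me1 averaged 1240 and 1229 bp in neutrophils, against 1348 and 1351 bp in WT HSPC. Other runs were 5 regions in 94.8 kb at the adhesion receptor genes Adgrg5, Adgrg1 and Adgrg3, and 3 each in shorter stretches, such as 8.2 kb at Bahcc1 and 14.4 kb at Capn5.

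The length of H3K27ac in the HSPC-restricted regions also varied between genotypes. The 3 comparisons of DM, Npm1c and Flt3-ITD with WT HSPC share the WT libraries, and each was fitted with limma on log2(bp + 500) over all 11576 regions of the 8 HSPC libraries. In DM 63 regions were longer (5.67%; 3.26% of all regions tested) and 55 shorter (4.95%; 2.36%), 10.6% in either direction against 5.62% of all regions tested. In Npm1c 110 were longer (9.9%; 6.46%) and 0 shorter (0.00864% of all; 6.47% in either direction), and in Flt3-ITD 15 were longer (1.35%; 0.354%) and 0 shorter (0.0346%; 0.389% in either direction). At an unadjusted limma p under 0.05, 0 regions were shorter and 444 longer in Npm1c, and 17 shorter and 194 longer in Flt3-ITD. In either direction, 3932 of all 11576 regions passed that threshold in Npm1c and 1613 in Flt3-ITD. Npm1c libraries had longer peaks throughout: the median log2 change over all regions tested was 0.23 in Npm1c, 0.10 in Flt3-ITD and 0.03 in DM, and 0.31 over the HSPC-restricted regions in Npm1c. With each library centred on its median, 9 regions were called in Npm1c, all longer (0.81%, against 0.337% of all regions tested). At an unadjusted limma p under 0.05, 44 were then shorter and 171 longer in Npm1c, and 1806 of all 11576 regions passed in either direction. Centred, DM had 114 longer (10.3%; 6.45%) and 118 shorter (10.6%; 6.71%), and Flt3-ITD 22 longer (1.98%; 0.734%) and 1 shorter (0.09%; 0.181%). The excess over all regions tested depended on which regions were fitted. Over the 28220 regions with a peak in at least 2 of the 8 HSPC libraries, it turned round in DM and Npm1c. DM then had 70 longer (6.3%, against 9.46% of all regions tested) and 68 shorter (6.12%, against 7.71%). Npm1c had 107 longer (9.63%, against 12.6%), and Flt3-ITD had 20 longer (1.8%, against 1.15%). Average lengths over the 1111 regions were 815 and 602 bp in DM and 1010 and 1081 bp in Npm1c. They were 749 and 896 bp in Flt3-ITD and 668 and 685 bp in WT HSPC. DM replicate 2 thus lay below DM replicate 1.

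The Npm1c and DM calls rest on both WT HSPC libraries. Without either WT library few calls remained in Npm1c or DM, and without either Npm1c library few remained in Npm1c. The same held over all regions tested. Dropping a Flt3-ITD library lowered the number of Npm1c calls and dropping a DM library raised it, again also over all regions. Without DM replicate 1 most DM calls were shorter, and without DM replicate 2 most were longer, here and over all regions. In Flt3-ITD no region passed the adjusted limma test without any WT or Flt3-ITD library, here or over all regions. At an unadjusted p under 0.05, more of the HSPC-restricted regions were then longer than shorter in Flt3-ITD. Leaving out an Npm1c library lowered the number of Flt3-ITD calls and leaving out a DM library raised it, also over all regions. The 63 regions longer in DM had a median log2 change of 0.84 in DM, 0.63 in Npm1c and 0.66 in Flt3-ITD. The 55 shorter ones had -0.97 in DM, 0.21 in Npm1c and -0.19 in Flt3-ITD. These regions were picked by their DM change and the comparisons share the WT libraries, so the medians are descriptions. No HSPC-restricted region was called shorter in Npm1c or Flt3-ITD, so the 55 could hold no such call.

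**Figure D5:**
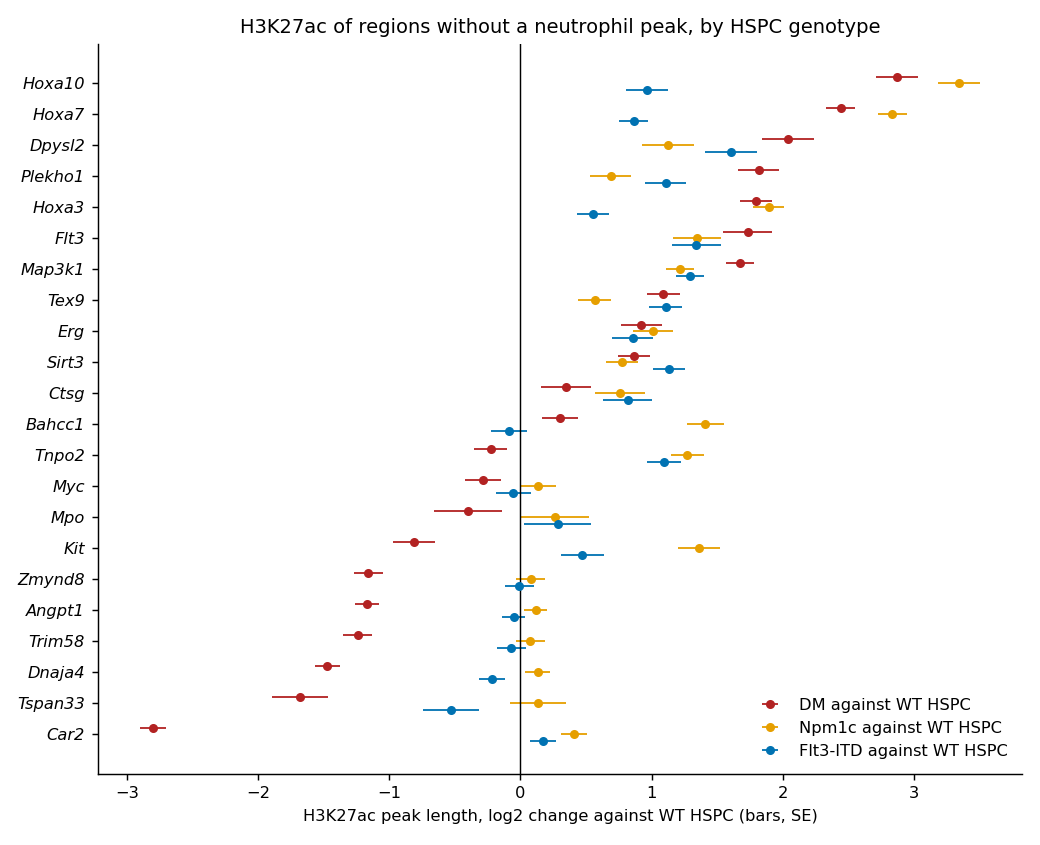
Log2 change in H3K27ac length (log2(bp + 500)) ± SE of DM, Npm1c and Flt3-ITD against WT HSPC at named HSPC-restricted regions. Hoxa10 stands at 2.87 in DM and 3.34 in Npm1c, and Car2 at -2.80 in DM with 0.41 in Npm1c and 0.17 in Flt3-ITD.

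By mean H3K27ac length over the HSPC libraries, Hoxa10 ranked 1 of the 1111, Hoxa7 ranked 4 and Hoxa3 ranked 119. Their lengths were far greater in the DM and Npm1c libraries than in WT HSPC. At Hoxa10 H3K27ac covered 9217 and 6575 bp in DM, 11055 and 11049 bp in Npm1c, 1646 and 1800 bp in Flt3-ITD and 535 and 749 bp in WT HSPC. All 6 mutant libraries lay above both WT HSPC libraries, and the log2 change was 2.87 ± 0.16 in DM (adjusted p = 0.000866), 3.34 ± 0.16 in Npm1c (adjusted p = 0.00074) and 0.97 ± 0.16 in Flt3-ITD (adjusted p = 0.0715). At Hoxa7 it covered 6674 and 5285 bp in DM, 7820 and 8104 bp in Npm1c, 1709 and 1614 bp in Flt3-ITD and 685 and 691 bp in WT HSPC, with adjusted p = 0.000469 in DM, 0.00033 in Npm1c and 0.048 in Flt3-ITD. At Hoxa3 it covered 2284 and 1996 bp in DM, 2302 and 2333 bp in Npm1c, 508 and 733 bp in Flt3-ITD and 254 and 266 bp in WT HSPC (adjusted p = 0.00132 in DM, 0.003 in Npm1c and 0.121 in Flt3-ITD). The Hoxa3 call in Npm1c was lost when WT replicate 1, WT replicate 2 or Npm1c replicate 2 was left out (adjusted p = 0.0558, 0.0567 and 0.0687), and the Hoxa7 call in Flt3-ITD without any WT, Npm1c or Flt3-ITD library (0.0731 to 0.36), with a pseudocount of 2000 bp (0.104) or with robust eBayes (0.0534). Meis1, chosen after its values were seen, had 1960 and 1002 bp in DM, 1988 and 2611 bp in Npm1c and 263 and 388 bp in WT HSPC at its promoter region (chr11:19017734-19020410), with adjusted p = 0.0323 in DM and 0.0269 in Npm1c. The Meis1 calls were lost without any WT library (0.143 to 0.204), in DM also without either Flt3-ITD library (0.0575 and 0.0578) or with a pseudocount of 2000 bp (0.0569), and in Npm1c without either Npm1c library (0.0793 and 0.141). Of the 5 HSPC-restricted regions in windows of HOX genes and cofactors, 4 were longer in DM, 4 in Npm1c and 1 in Flt3-ITD.

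The receptor genes Flt3 and Kit were called in opposite directions in DM. The intronic Flt3 region had 2616 and 2273 bp of H3K27ac in DM, 1770 and 1733 bp in Npm1c, 2254 and 1327 bp in Flt3-ITD and 444 and 331 bp in WT HSPC. All mutant libraries exceeded WT HSPC there (log2 change 1.73 in DM, adjusted p = 0.00689; 1.35 in Npm1c, adjusted p = 0.0273; 1.34 in Flt3-ITD, adjusted p = 0.05 after rounding). The DM call became adjusted p = 0.0608 and 0.0654 without WT replicate 1 and 2, and the Npm1c call 0.204 and 0.176. The Npm1c call was lost without either Npm1c library (0.084 and 0.141), with centred libraries (0.0745) and with equal list lengths (0.0527) as well. The Flt3-ITD call was lost without any WT, Npm1c or Flt3-ITD library (0.0733 to 0.35), with a pseudocount of 2000 bp (0.0884), with robust eBayes (0.0541) and with equal list lengths (0.183). At the Flt3 region 2, the promoter, the DM libraries had 2680 and 2045 bp, Npm1c 742 and 1941 bp, Flt3-ITD 1389 and 1575 bp and WT HSPC 498 and 387 bp (adjusted p = 0.0277 in DM, 0.0928 in Npm1c and 0.18 in Flt3-ITD), and the DM call was lost without any WT, Flt3-ITD or DM library (0.0536 to 0.171).
At Kit H3K27ac covered 353 and 578 bp in DM, 3475 and 4201 bp in Npm1c, 1571 and 2136 bp in Flt3-ITD and 1157 and 1212 bp in WT HSPC. DM lay below WT HSPC at Kit and Npm1c above it, with log2 changes of -0.81 ± 0.16 (adjusted p = 0.035) and 1.36 ± 0.16 (adjusted p = 0.0236), and 0.47 in Flt3-ITD (adjusted p = 0.262). The Kit call in DM was lost without WT replicate 1 or 2 or DM replicate 1 (adjusted p = 0.184, 0.206 and 0.076) and with a pseudocount of 2000 bp (0.0665), and that in Npm1c without any WT or Npm1c library (0.0689 to 0.204) and with libraries centred (0.0599). Erg had 2938 and 2318 bp in DM, 2472 and 3180 bp in Npm1c, 2815 and 2168 bp in Flt3-ITD and 1145 and 1141 bp in WT HSPC (adjusted p = 0.0228 in DM, 0.0303 in Npm1c and 0.0828 in Flt3-ITD). The Erg calls were lost without either WT library (0.143 to 0.204), without DM replicate 1 in DM (0.0503) and in Npm1c without either Npm1c library (0.0793 and 0.16) or with centred libraries (0.0745).

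Angpt1 (chr15:42674954-42677227) was shorter in DM and in neither single mutant, with 701 and 567 bp in DM, 2241 and 2274 bp in Npm1c, 1959 and 1948 bp in Flt3-ITD and 2143 and 1949 bp in WT HSPC. Both DM libraries lay below all other HSPC libraries at Angpt1, with a log2 change of -1.17 ± 0.09 in DM (adjusted p = 0.0022), 0.12 in Npm1c (adjusted p = 0.351) and -0.05 in Flt3-ITD (adjusted p = 0.839). At Zbtb46 (chr2:181458297-181464468) H3K27ac covered 521 and 230 bp in DM, 6070 and 4548 bp in Npm1c, 1427 and 3258 bp in Flt3-ITD and 3183 and 3533 bp in WT HSPC, and the DM change was -2.16 ± 0.31 (adjusted p = 0.0155; 0.107 and 0.104 without WT replicate 1 and 2). The region beyond Map3k1 (chr13:111999937-112004289) had 4185 and 4004 bp in DM, 2663 and 3038 bp in Npm1c, 2896 and 3161 bp in Flt3-ITD and 825 and 1060 bp in WT HSPC. It was longer than WT HSPC in all 6 mutant libraries, with adjusted p = 0.00132 in DM, 0.0158 in Npm1c and 0.025 in Flt3-ITD; the Npm1c and Flt3-ITD calls at Map3k1 were lost without either WT library or either library of the genotype (0.0571 to 0.213).

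Of the 3 HSPC-restricted regions at genes of the erythroid list, 2 were called shorter in DM, those at Car2 and Tspan33. At Car2 (chr3:14885448-14892233) H3K27ac covered 272 and 257 bp in DM, 6786 and 6346 bp in Npm1c, 5374 and 5628 bp in Flt3-ITD and 5306 and 4384 bp in WT HSPC. The DM libraries lay far below the other 6 at Car2, with a log2 change of -2.80 ± 0.10 (adjusted p = 0.000195), against 0.41 in Npm1c (adjusted p = 0.0565) and 0.17 in Flt3-ITD (adjusted p = 0.501). Within 1 kb of the Car2 region H3K4me1 covered 1000 and 1000 bp in DM and 2000 and 3000 bp in neutrophils, against 4771 and 3760 bp in WT HSPC. Tspan33, a tetraspanin of red cell precursors (chr6:29694205-29697539), had 477 and 493 bp of H3K27ac in DM, 3327 and 2625 bp in Npm1c, 1218 and 2289 bp in Flt3-ITD and 2685 and 2629 bp in WT HSPC (DM log2 change -1.68 ± 0.21, adjusted p = 0.0109; 0.0953 and 0.0792 without WT replicate 1 and 2). Ank1, the red cell ankyrin (chr8:23033969-23036719), had 685 and 338 bp in DM, 2519 and 2056 bp in Npm1c, 662 and 1829 bp in Flt3-ITD and 2224 and 2002 bp in WT HSPC and did not pass (adjusted p = 0.0517). H3K4me3 was absent from both neutrophil libraries at Ank1, against 1000 and 1000 bp in WT HSPC. Dnaja4, a co-chaperone of HSP70 (207 and 239 bp in DM, against 1492 and 1516 bp in WT HSPC, adjusted p = 0.00132) and Trim58, a ubiquitin ligase of red cell precursors (209 and 352 bp in DM, against 1313 and 1361 bp in WT HSPC, adjusted p = 0.00491; 0.0596 and 0.0581 without WT replicate 1 and 2), were also shorter. So were, chosen after their values were seen, Alad (an enzyme of haem synthesis; 661 and 654 bp in DM, against 2943 and 2493 bp in WT HSPC, adjusted p = 0.0101; 0.0953 and 0.0671 without WT replicate 1 and 2), Ldb1 (a cofactor of GATA1; 274 and 244 bp in DM, against 1372 and 1621 bp in WT HSPC, adjusted p = 0.0109; 0.0824 and 0.0913) and Blvrb (biliverdin reductase B; 253 and 246 bp in DM, against 918 and 1005 bp in WT HSPC, adjusted p = 0.0393; 0.0604 to 0.22 without any WT, Npm1c or DM library). Dnaja4, Trim58, Alad, Ldb1 and Blvrb are not on the erythroid list.

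The erythroid marker list as a whole stood low in DM. Over its 31 genes found, H3K27ac summed to 25.9 and 17.0 kb in the DM libraries, 157.1 and 110.6 kb in Npm1c, 55.8 and 78.7 kb in Flt3-ITD and 95.2 and 93.4 kb in WT HSPC. Peaks were present in 16 and 16 of the genes in DM, against 28 and 30 in WT HSPC. The DM libraries had 0 bp at Gata1 (1607 and 1397 bp in WT HSPC), Car1, Rhag, Slc4a1 and Aqp1, and 1589 and 1455 bp at Klf1, against 3410 and 3698 bp in WT HSPC. How far the makeup of the lineage-negative fraction takes part in the shorter DM regions was not tested. In neutrophils the list summed to 16.1 and 14.5 kb. Over the other lists, 8 ribosome biogenesis regions had 1 called in DM, Polr1b, with 392 and 262 bp in DM, against 781 and 807 bp in WT HSPC (adjusted p = 0.0262; 0.169 and 0.184 without WT replicate 1 and 2). The 4 regions at primary granule genes had 0 called by limma in any genotype, with 0 at an unadjusted p under 0.05 in DM, 3 in Npm1c and 2 in Flt3-ITD. The 8 at cell cycle genes also had 0 called, with 2 at an unadjusted p under 0.05 in DM, 2 in Npm1c and 1 in Flt3-ITD.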

How the data were processed

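H3K4me1, H3K4me3 and H3K27ac were profiled in 5 groups with 2 libraries per mark, 30 libraries in all; 5 input samples were not used here. The submitters' processing notes name the build mm10, the aligner Bowtie2 2.1.0, Picard, and the peak callers HOMER and MACS2; the sources used here give no thresholds or other versions. The deposited values are of unit other: peak coordinates per library as the authors called them, with no score or count, so depth is unknown. H3K4me1 lists held 102907 to 131179 peaks, H3K4me3 lists 30295 to 39307 and H3K27ac lists 21704 to 30143, on chromosomes 1 to 19, X and Y.

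Overlapping H3K27ac peaks of the 10 libraries were merged, and members and gene lists were chosen with earlier results of these data known. Base pairs of peak per region and library were computed with NumPy 2.4.6 and pandas 2.3.3 (Python 3.11.15), drawn with matplotlib 3.10.9, and tested on log2(bp + 500) in R 4.3.3 by limma 3.58.1, using lmFit and trended eBayes, checked on simulated data. The simulated noise was continuous and its spread was kept above a floor. That check therefore does not cover the 1000-bp steps of the methyl marks or regions without spread between replicates. H3K4me1 and H3K4me3 within 1 kb were fitted over 48131 and 41522 regions covered in at least 2 of 10 libraries, and H3K27ac over 11576 regions of the 8 HSPC libraries. P-values were adjusted by Benjamini-Hochberg over all regions tested, at a threshold of 0.05; libraries were not scaled. A floor on the spread was an alternative added after the data were seen. It raised the spread of every region to at least the median non-zero spread, before the estimate shared by all regions was made. Adjusted p could therefore fall as well as rise with the floor.

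Genes came from the RefSeq table of GRCm38.p6 (21887 protein-coding genes, with no strand), starts and sequences from RefSeq promoters of the same assembly (17492 genes, 79.9%). Motif letters were searched on both strands of the 250 bases before each start. Named regions were the 12 with the longest mean HSPC peak, those of the 8 genes with most members, up to 4 genes per list for 18 lists, and the 5 members with the smallest adjusted p per test and direction; not every region this took is printed, and others are said to be chosen later. Alternatives were other pseudocounts, extensions, merging and coverage rules, equal list lengths, centred libraries, robust eBayes, a replicate block and leaving out each library. For H3K27ac, the regions with a peak in at least 2 of the 8 HSPC libraries were also fitted.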

Additional observations from a re-analysis of the deposited data

How the results depend on the processing

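The 1111 regions became 911 when peaks within 500 bp were merged, 1218 when 25% of a region had to be covered, 1278 with equal lists of the widest peaks, 946 without regions that had a neutrophil peak within 1 kb, and 1128 to 1399 with 1 library left out, the highest without DM replicate 2. The number of genes with such a region in the window, 1378 at 10 kb, was 773 with no extension and 2854 at 50 kb. The count of regions with H3K4me3 left in both neutrophil libraries was 1019 to 1021 with 1 library left out. Calls of the methyl marks depended on the window and on the lists. With no extension H3K4me1 gave 23 lower (2.14%, against 8.57% of all regions tested) and 96 higher (8.92%, against 3.79%). H3K4me3 gave 154 lower (14.8%, against 8.8%). Equal list lengths gave 15 lower (1.36%, against 3.75%) and 10 higher (0.905%, against 2.47%) for H3K4me1. For H3K4me3 they gave 15 lower (1.36%, against 3.57%) and 15 higher (1.36%, against 8.92%). With the spread floor the higher calls were 8 for H3K4me1 (0.723%, against 1.99%) and 6 for H3K4me3 (0.545%, against 11.7%). With 2500 bp on each side H3K4me3 gave 20 higher (1.81%, against 10.5%). Leaving out 1 library left more lower than higher calls for both marks. Over all regions tested the same held for H3K4me1, whereas H3K4me3 had more higher than lower calls. For H3K27ac in either direction, centred libraries gave 9 calls in Npm1c (0.81%, against 0.354% of all regions tested). They gave 23 in Flt3-ITD (2.07%, against 0.916%) and 232 in DM (20.9%, against 13.2%). Equal lists of the widest peaks gave 51 in Npm1c (4.59%, against 2.89%) and 3 in Flt3-ITD (0.27%, against 0.121%). In Flt3-ITD, a pseudocount of 2000 bp gave 2 (0.18%, against 0.0605%) and robust eBayes 2 (0.18%, against 0.0777%). With 1 library left out the calls ranged from 2 to 260 in Npm1c, 0 to 45 in Flt3-ITD and 8 to 163 in DM. The number of calls over all regions tested also varied, and was lowest and highest without the same libraries. The causes were not tested.

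Replicate numbers did not pair the samples: the correlation of same-numbered deviations was -0.005 to 0.095. With the replicate number as a block, limma called 18 regions in Npm1c (1.62%, against 0.544% of all regions tested) and 0 in Flt3-ITD. H3K4me1 gave 70 lower (6.33%, against 9.24%) and 21 higher (1.9%, against 3.24%). H3K4me3 gave 60 lower (5.45%, against 6.85%) and 36 higher (3.27%, against 10.6%). The block ended every Flt3-ITD call and further calls that the lists of lost calls by region leave out. In Npm1c these included Erg (adjusted p = 0.0543), Meis1 (0.0522), F2r (0.0653) and Dpysl2 (0.0593). In DM they included Meis1 (0.0569), Polr1b (0.0505) and Blvrb (0.0517). For single named regions, 204 results were recomputed under the alternatives, giving 3180 values. In the main fit 58 of the 204 had a rounded adjusted p under 0.05. A result rounding to 0.05, such as Flt3-ITD at Flt3, also counted as called. Of the 3180 values, 2917 kept their direction and side of the threshold, many of them for results not called in the main fit. The 195 values no longer called and the 5 that changed sign all belong to results called in the main fit. Another 63 became called. H3K4me1 changed sign at Ripor2 with no extension (0.43), at Ubac2 (-0.0857) and Srd5a1 (-0.49) with 2500 bp and at Stau1 with equal lists (-0.52). H3K4me3 changed sign at Mxd1 against the mean of all HSPC groups (-0.93). The DM calls at Car2, Angpt1, Dnaja4, Hoxa10, Hoxa7, Hoxa3, Map3k1 and Plekho1 and the Npm1c calls at Hoxa10 and Hoxa7 held under all 15 alternatives run.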

Other observations

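Some HSPC-restricted regions lay at genes of other lineages or were longer in mutant libraries. Bach2, a repressor of lymphoid and progenitor cells, held 2 of them, 273413 and 283802 bp from the nearest neutrophil peak. The region at chr4:32238172-32240172 had 1713 and 1573 bp of H3K27ac in DM, 1425 and 1795 bp in Npm1c, 1295 and 1861 bp in Flt3-ITD and 1198 and 1323 bp in WT HSPC, and passed the limma test in no genotype (adjusted p = 0.333 in DM). Over the whole Bach2 window H3K27ac covered 16823 and 8610 bp in DM, against 2686 and 2982 bp in WT HSPC, and neutrophils had 292 and 388 bp there. Foxo1, a factor of lymphoid and stem cells, had 463 and 529 bp in its region in DM, against 775 and 1080 bp in WT HSPC (adjusted p = 0.425). F2r, the thrombin receptor of platelets, had 1216 and 990 bp in Npm1c, against 404 and 304 bp in WT HSPC (adjusted p = 0.0426, and 0.264 with centred libraries and 0.114 with equal list lengths; 0.113 to 0.218 without any WT or Npm1c library).

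Plekho1, which encodes a regulator of actin and AKT signalling, and Dpysl2, a microtubule-binding protein, had regions near the smallest peak length in WT HSPC. Plekho1 (chr3:95993875-95996487) had 2613 and 2080 bp in DM, 712 and 888 bp in Npm1c, 1228 and 1239 bp in Flt3-ITD and 420 and 205 bp in WT HSPC. It was longer in all 6 mutant libraries and passed the limma test in DM (adjusted p = 0.0042), with 0.0505 in Npm1c and 0.0513 in Flt3-ITD. Dpysl2 (chr14:66844802-66847804) had 2873 and 2144 bp in DM, 823 and 1400 bp in Npm1c, 1908 and 1530 bp in Flt3-ITD and 200 and 256 bp in WT HSPC, with adjusted p = 0.00597 in DM, 0.0347 in Npm1c and 0.048 in Flt3-ITD. All 3 Dpysl2 calls were lost without either WT library (0.0608 and 0.0536 in DM, 0.213 and 0.192 in Npm1c, 0.35 and 0.242 in Flt3-ITD), the Flt3-ITD call also without either Flt3-ITD library (0.23 and 0.186), with a pseudocount of 2000 bp (0.0702), robust eBayes (0.0534) or equal list lengths (0.0579), and the Npm1c call without any Npm1c or Flt3-ITD library (0.0501 to 0.162), with centred libraries (0.0853) or equal list lengths (0.0628). At Tnpo2, a nuclear import receptor, the region lay 159 bp from a neutrophil peak and was longer in Npm1c (1699 and 1696 bp, adjusted p = 0.0222) and Flt3-ITD (1437 and 1448 bp, adjusted p = 0.0472), against 307 and 527 bp in WT HSPC. It was not called in DM (289 and 266 bp, adjusted p = 0.363), the Npm1c call was lost without any WT or Npm1c library (0.0567 to 0.175), and the Flt3-ITD call without any WT, Npm1c or Flt3-ITD library (0.0683 to 0.32), with robust eBayes (0.0506) or equal list lengths (0.121). Nfix, a nuclear factor of stem cell survival, had 429 and 236 bp in DM, 2414 and 1749 bp in Npm1c, 557 and 1208 bp in Flt3-ITD and 1794 and 1994 bp in WT HSPC (DM adjusted p = 0.0194; 0.124, 0.132 and 0.057 without WT replicate 1, WT replicate 2 and DM replicate 2). Over the autosomes and X, the share of HSPC regions without a neutrophil peak ran from 7.08% on chromosome 7 to 13.9% on chromosome 13, which holds the large histone cluster; chromosome Y had 0 of 3.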
